A study of Rattus norvegicus with 8 samples.

Results

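The genes examined are the 4 early growth response transcription factors Egr1, Egr2, Egr3 and Egr4 and the synaptic gene Arc, in the frontal cortex of rats given olanzapine or saline. Every probe set whose symbol in the platform's probe table is exactly one of these 5 names was taken, which gave 7 of the 31099 probe sets on the array: 1 each for Egr1, Egr3 and Arc and 2 each for Egr2 and Egr4. The 4 olanzapine arrays come from male Sprague-Dawley rats, an outbred strain, treated for 21 days with 2 mg/kg/day of olanzapine by intraperitoneal injection, and the 4 saline arrays from male rats of the same strain injected with saline for 21 days. All animals weighed about 200 g at the start, and 20 were assigned to each treatment. Each array is taken as 1 animal of the 20, from the number in its title. Arrays are named by treatment and that number, called the animal number here. The time between the last injection and dissection is not stated in the labels.

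Egr proteins are zinc finger transcription factors that bind GC-rich DNA and are made within minutes of neuronal firing, through signalling from calcium and MAP kinases to the serum response factor and CREB. Arc is made in the same response, mostly in excitatory neurons, and its messenger RNA travels to dendrites, where the protein promotes the removal of AMPA receptors from synapses. Egr1 messenger RNA is high in the cortex of awake animals without any added stimulus, and Egr1 and Egr3 are known to bind the Arc gene. Olanzapine is an antipsychotic drug that blocks dopamine and serotonin receptors among others. The comparison asks whether messenger RNAs of these genes differ in the cortex after repeated treatment.

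Egr3 was too dim to be tested, and none of the other genes passed the test between olanzapine and saline. The differences were small for the Egr1 probe set, positive for the bright Egr2 probe set and for Arc, and negative for Egr4, and in each of these the values of the groups overlapped. In 2 of the 5 tested probe sets, the bright one of Egr2 and 1 of Egr4, the saline arrays were spread far more widely than the olanzapine arrays: that Egr2 probe set lay within 4418 to 4991 in olanzapine and within 1987 to 6097 in saline. Saline 17 was the lowest of the 8 arrays for that Egr2 probe set, for Arc and for 1 of the 2 Egr4 probe sets.

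The promoters are shown because Egr genes are known to be induced through serum response elements, whose core is the CArG box, and through elements bound by CREB. RefSeq promoter sequences (build GRCr8) were matched for 3 of the 5 genes, Egr1, Egr2 and Egr4. Each line gives the 250 bases before the annotated transcript start, 5′ to 3′ on the gene's strand. Capitals mark exact CArG boxes, with only A or T between CC and GG, and the CREB half-site TGACG, which reads CGTCA on the opposite strand. Near matches to a CArG box, such as ccatgtttgg in Egr4, were not counted. Both strands were searched, and the motifs do not overlap here. Egr1 lies at chr18:26736828-26737077 on the plus strand, Egr2 at chr20:21054442-21054691 on the minus strand and Egr4 at chr4:119607818-119608067 on the minus strand.
Egr1: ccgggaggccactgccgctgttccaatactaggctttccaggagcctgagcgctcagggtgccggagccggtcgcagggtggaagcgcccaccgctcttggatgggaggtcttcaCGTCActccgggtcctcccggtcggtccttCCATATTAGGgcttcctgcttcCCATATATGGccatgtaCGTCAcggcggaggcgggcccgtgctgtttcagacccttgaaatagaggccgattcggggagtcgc
Egr2: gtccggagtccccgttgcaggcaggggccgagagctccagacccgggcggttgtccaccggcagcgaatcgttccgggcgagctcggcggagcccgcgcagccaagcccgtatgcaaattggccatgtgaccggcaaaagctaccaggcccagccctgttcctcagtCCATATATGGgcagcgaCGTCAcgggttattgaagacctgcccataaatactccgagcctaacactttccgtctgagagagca
Egr4: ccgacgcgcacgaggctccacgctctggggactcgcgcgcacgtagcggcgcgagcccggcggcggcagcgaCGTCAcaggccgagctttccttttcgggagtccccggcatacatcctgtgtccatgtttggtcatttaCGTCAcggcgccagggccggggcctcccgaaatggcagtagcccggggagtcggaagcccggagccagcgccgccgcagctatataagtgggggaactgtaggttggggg

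The Egr1 stretch holds 2 CArG boxes and 2 half-sites, the Egr2 stretch 1 of each and the Egr4 stretch 0 CArG boxes and 2 half-sites. The Egr1 and Egr2 stretches hold the same CArG box, CCATATATGG, at bases -83 to -74 from the start, and a half-site at bases -66 to -62. The other CArG box of Egr1, CCATATTAGG, lies at bases -105 to -96. Among 33469 rat promoters of this length, 1.5% hold a CArG box and 0.0209% hold at least 2. The half-site is held by 18.2%, at least 2 half-sites by 3.98% and both motifs by 0.23%. The Egr1 and Egr4 stretches end directly before the annotated gene, and the Egr2 stretch lies inside the span annotated for Egr2, chr20:21050149-21055201. A match describes the letters and is not a measured binding site.

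Deposited values are linear intensities with the same trimmed mean, 500, on every array, and median intensities were 159 to 191. Intensities of different probe sets are on different scales, so each probe set is compared only with itself across arrays. Differences were tested on log2(intensity + 63.4) with limma over 18625 probe sets, those above the 40th percentile of mean log2 intensity. Of all tested probe sets 0% (0 of 18625) passed an adjusted p of 0.05, 8.32% had an unadjusted p under 0.05, and 4.47% had groups whose values did not overlap. Of the 7 member probe sets 5 were left by the filter, 1 each for Egr1, Egr2 and Arc and both for Egr4. Of these 5, 0 passed, 0 had an unadjusted p under 0.05 and 0 had groups that did not overlap. In tissue RNA, fewer cells of a type and less RNA per cell cannot be told apart. Of the markers of excitatory cortical neurons 11 of 12 on the array were left by the filter, and of the 6 markers of the choroid plexus on the array 0 were left.

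**Figure D1:**
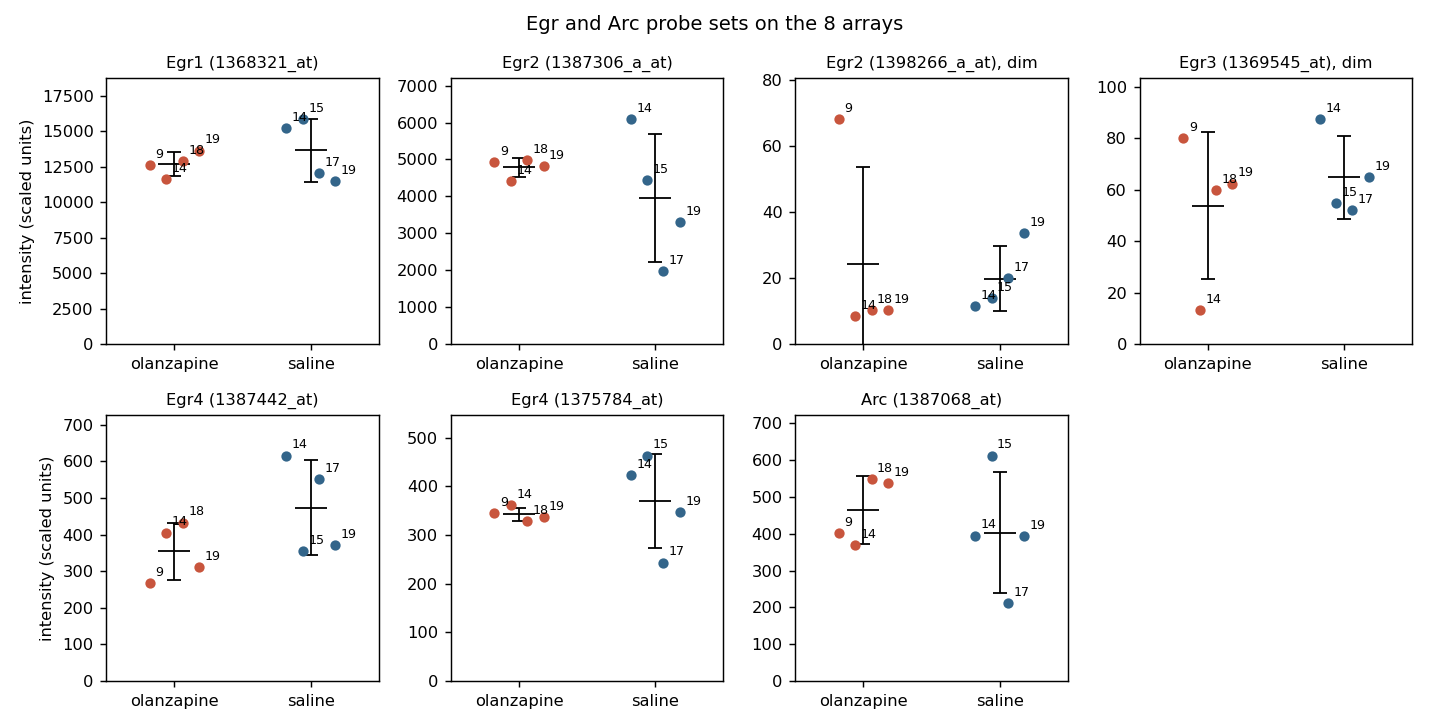
Deposited intensity (vertical axis, scaled units, starting at 0) of the 7 Egr and Arc probe sets on the 4 olanzapine and the 4 saline arrays. Points are arrays with their animal number, and the bars are mean ± SD (cut at 0 in 1 panel). The Egr2 probe set 1387306_a_at and the Egr4 probe set 1375784_at lie close together in olanzapine and far apart in saline, where animal 17 is lowest.

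Egr1 (also NGFI-A or zif-268) is the family member most often used as a marker of neuronal activity in the cortex. Its intensity was 12619, 11606, 12915 and 13629 on olanzapine arrays 9, 14, 18 and 19, against 15239, 15863, 12027 and 11473 on saline arrays 14, 15, 17 and 19. Saline 14 and 15 were above every olanzapine array, saline 17 lay within the olanzapine values and saline 19 was the lowest of all. The log2 difference was -0.09 (SE 0.10, 95% interval -0.31 to 0.13, limma adjusted p 0.858). It turned to 0.18 after quantile normalization (SE 0.067, limma adjusted p 0.751) and to 0.10 after cyclic loess (SE 0.073, limma adjusted p 0.846). This probe set is among the brightest 5% of those tested, for which the median over all of them was -0.15 with the deposited scaling and 0.0021 once quantile normalized.

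Egr2 (Krox20) acts in neurons as an immediate early factor and, outside the brain, switches on myelin genes in Schwann cells. Its bright probe set, 1387306_a_at, was at 4937, 4418, 4991 and 4826 on olanzapine arrays 9, 14, 18 and 19, against 6097, 4447, 1987 and 3298 on saline arrays 14, 15, 17 and 19. Every olanzapine value lay within the saline range. The means were 4793 ± 259 in olanzapine and 3957 ± 1745 in saline (SD, n = 4 each), a log2 difference of 0.38 (SE 0.23, 95% interval -0.10 to 0.87, limma adjusted p 0.716). Without saline 17 the difference was 0.097, and without saline 14, the highest array, it was 0.63.

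On the log2 scale the SD of this Egr2 probe set was 0.079 over the olanzapine arrays and 0.675 over the saline arrays, so that the saline SD was 8.57 times the olanzapine SD. Over all tested probe sets the median of this ratio was 1.26, and 0.617% had a ratio at least as large. Without saline 17 the ratio for Egr2 was 5.55. The ratio was 2.45 for Egr1, 2.07 for Arc and 1.28 for the first Egr4 probe set described below, and it was 0.44 and 0.39 for the dim probe sets of Egr3 and Egr2, where olanzapine was the more variable. The difference in spread was looked at after the values had been seen and was not tested. The second Egr2 probe set, 1398266_a_at, was too dim for the filter, with intensities of 8.44 to 68.1 in olanzapine and 11.6 to 33.7 in saline, and its log2 difference in the fit without the filter was 0.031 (SE 0.20).

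Egr3, which is induced together with Egr1 and is needed for the development of muscle spindles in mice, was also below the filter. Its probe set was at 80.1, 13.2, 59.7 and 62.4 on olanzapine arrays 9, 14, 18 and 19, against 87.5, 54.9, 52.1 and 65.0 on saline arrays 14, 15, 17 and 19. Olanzapine 14 lay below every other array, and the rest overlapped. The log2 difference in the fit without the filter was -0.16 (SE 0.23, 95% interval -0.65 to 0.33), and without olanzapine 14 it was 0.033. At these intensities the pseudocount of 63.4 is as large as the signal, so that differences in Egr3 are understated.

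Egr4 (NGFI-C) was first isolated as a gene induced by nerve growth factor. Its first probe set, 1387442_at, was at 267, 405, 432 and 311 on olanzapine arrays 9, 14, 18 and 19, against 615, 354, 551 and 372 on saline arrays 14, 15, 17 and 19. Olanzapine 9 and 19 lay below every saline array, and the other olanzapine values lay within the saline range. The log2 difference was -0.35 (SE 0.19, 95% interval -0.75 to 0.053, limma adjusted p 0.677), the smallest unadjusted p among the member probe sets in this fit at 0.0838.

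The second Egr4 probe set, 1375784_at, was at 344, 361, 329 and 338 on olanzapine arrays 9, 14, 18 and 19, against 424, 463, 243 and 347 on saline arrays 14, 15, 17 and 19. Olanzapine values were again close together, inside a wide saline range, with log2 SDs of 0.048 in olanzapine and 0.346 in saline and a difference of -0.06 (SE 0.17, limma adjusted p 0.949). The saline SD was 7.17 times the olanzapine SD, and 1.08% of tested probe sets had a ratio at least as large. Without saline 17 the ratio was 3.83 and the difference was -0.22.

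The 2 Egr4 probe sets did not follow each other over the 8 arrays (Pearson r = -0.142, Spearman rho = -0.071, given as a description). Relative to the mean of the other saline arrays, saline 17 was at 0.30 in the first and at -0.62 in the second. The platform table ties the first to a RefSeq messenger RNA of Egr4 and the second to a different GenBank record, and which of them follows the Egr4 transcript was not tested. The mean of both probe sets gave a difference of -0.21 (SE 0.15).

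**Figure D2:**
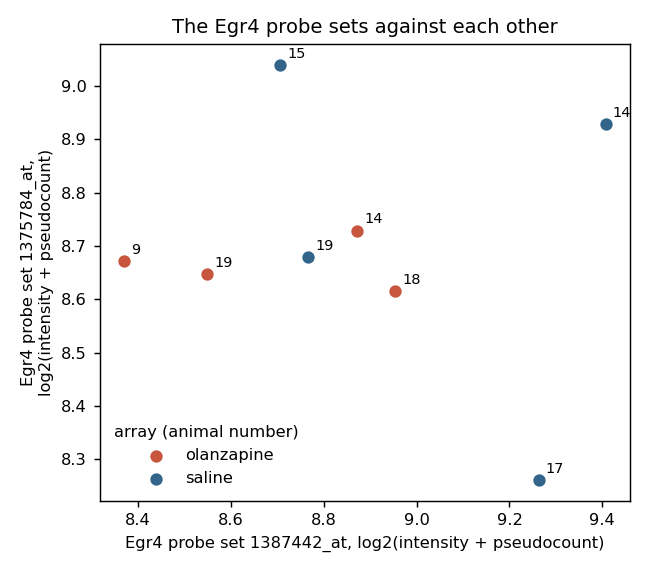
Values of the 2 Egr4 probe sets on the same arrays, as log2(intensity + 63.4), with 1387442_at on the horizontal axis and 1375784_at on the vertical axis. Each point is an array with its animal number, coloured by treatment; saline 17 is at 9.26 on the first and at 8.26 on the second.

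Arc, the synaptic effector in this set and not a transcription factor, was at 401, 369, 548 and 538 on olanzapine arrays 9, 14, 18 and 19, against 395, 612, 212 and 394 on saline arrays 14, 15, 17 and 19. Saline 15 was the highest and saline 17 the lowest of all arrays, with the 4 olanzapine values between them. The means were 464 ± 92.3 in olanzapine and 403 ± 164 in saline (SD, n = 4 each). The log2 difference was 0.23 (SE 0.22, 95% interval -0.25 to 0.71, limma adjusted p 0.832). Without saline 17 it was 0.00049, and without saline 15 it was 0.43.

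**Figure D3:**
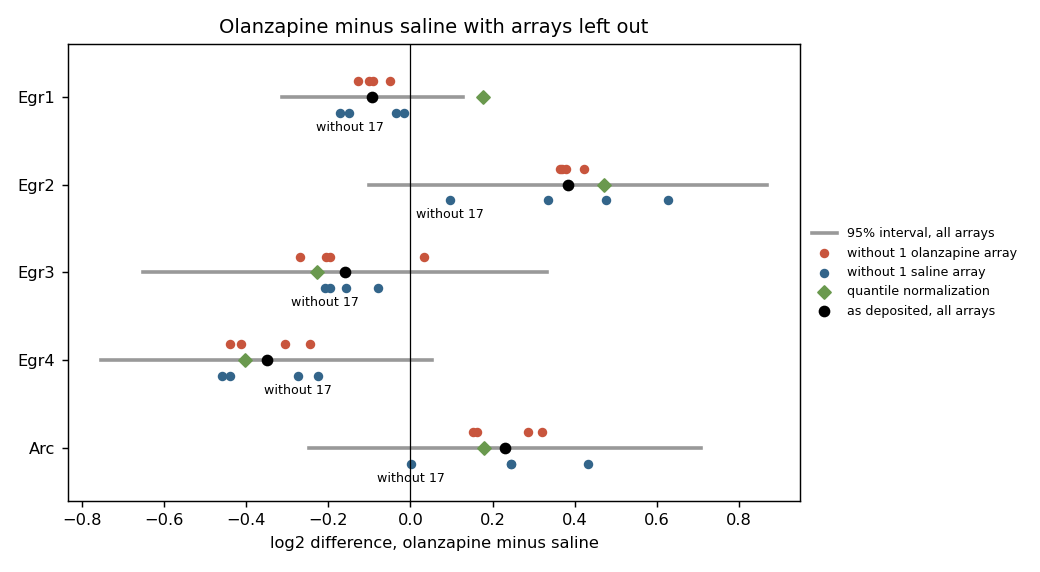
Difference of olanzapine minus saline on the log2 scale (horizontal axis) for the 5 genes, each by its probe set of highest mean. Black points are all 8 arrays with their 95% interval, small points leave out 1 olanzapine or 1 saline array, and diamonds are after quantile normalization. Without saline 17 the values for Egr2 and Arc lie at 0.097 and 0.00049.

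Whether the members vary together between animals was asked over the 8 arrays, for the 10 pairs of genes and with p-values adjusted over the 10. Egr2 and Arc had a Pearson r of 0.723 (exact permutation p = 0.0609, adjusted 0.56) and a Spearman rho of 0.571 (exact permutation p = 0.151, adjusted 0.378). Without saline 17 and 19, the arrays farthest from the Egr2 median, r was -0.316, and without saline 17 alone it was 0.089, so that the relation rests on those arrays. Egr1 and Arc had an r of 0.555 (exact permutation p = 0.154, adjusted 0.56) and a rho of 0.738 (exact permutation p = 0.0458, adjusted 0.378), and without saline 14 and 15 r was 0.594. Egr1 and Egr2 had an r of 0.527 (exact permutation p = 0.168, adjusted 0.56) and a rho of 0.619 (exact permutation p = 0.115, adjusted 0.378), and without saline 14 and 15 r was 0.494. None of the 10 relations passed after adjustment.

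With group means removed, r was 0.743 for Egr1 with Egr2, 0.703 for Egr1 with Arc and 0.689 for Egr2 with Arc. After quantile normalization these pairs were at 0.858, 0.843 and 0.699. The first Egr4 probe set had an r of -0.485 with Arc and of -0.224 with Egr2. Its second probe set, taken as an alternative after the values were seen, had an r of 0.697 with Arc, 0.738 with Egr2 and 0.7 with Egr1 (exact permutation p = 0.0628, 0.0484 and 0.047, each 0.22 when adjusted over 14 relations), with rho of 0.238, 0.19 and 0.357. Its r with Egr2 was 0.238 without saline 17, and its r with Egr1 was 0.035 without saline 14 and 15. Its r with Arc was 0.219 without saline 17 and turned to -0.545 without saline 15 and 17.

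**Figure D4:**
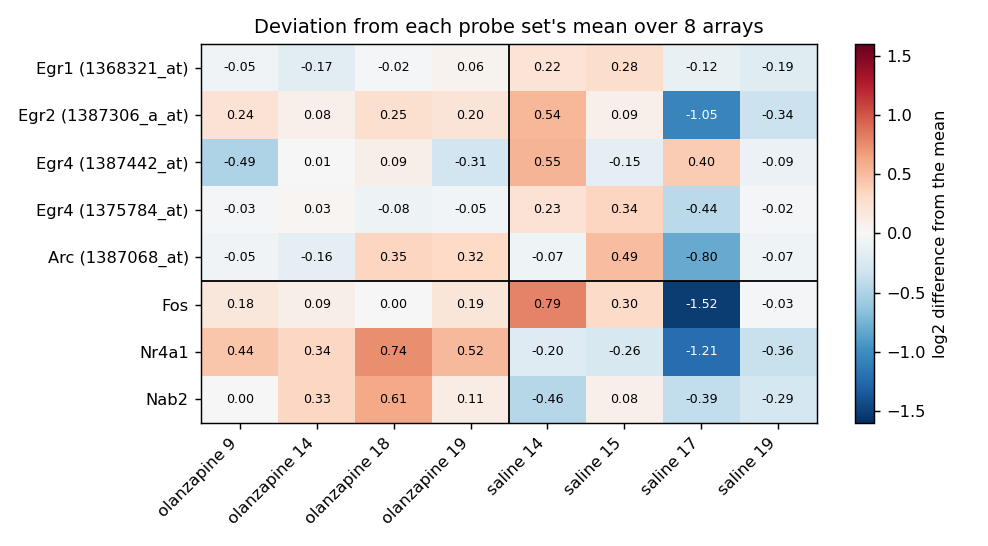
Deviation of each array from the probe set's mean over the 8 arrays, in log2 units, for the 5 tested member probe sets (above the line) and for Fos, Nr4a1 and Nab2 (below it). Columns are the olanzapine arrays, then the saline arrays. Saline 17 is the lowest column for Egr2, for the Egr4 probe set 1375784_at, for Arc, Fos and Nr4a1, and not for Egr1, the Egr4 probe set 1387442_at or Nab2.

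Relative to the mean of the other saline arrays, saline 17 was at -1.15 in the bright Egr2 probe set, at -0.92 in Arc and at -0.22 in Egr1, on the log2 scale. Of the other 38 activity-regulated genes left by the filter, it was the lowest saline array in 13 (34.2%), where the same held for 25.5% of all 10123 genes. Their median distance from the other saline arrays was -0.178, against -0.013 over all genes. Fos, the partner of Jun in AP-1, lay at -1.88, the MAP kinase phosphatase gene Dusp1 at -2.20, the stress and activity factor gene Atf3 at -2.18, and Ccn1 at -1.74, all picked after their values were seen. Markers of excitatory neurons had a mean log2 level of 9.82 in saline 17 and of 9.82 to 9.86 on the other saline arrays. Markers of microglia were at 8.12 in saline 17, against 8.33 to 8.64, and those of endothelium at 8.82, against 8.84 to 9.08, the lowest of the 8 arrays for both lists. By gene, saline 17 was the lowest saline array in 3 of 7 microglial and 4 of 10 endothelial markers. It was not the lowest array in the means of the other measured marker lists. The part of these lists in the values of saline 17 was not tested.

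The other activity-regulated genes, a list chosen with earlier results of these data known, had 25 of 38 higher and 13 lower in olanzapine, where 53.4% of all genes were higher. None were called (0 of 38), with a median difference of 0.075 against 0.015 over all genes. Of the 38, 10 had an unadjusted p under 0.05, 7 of them higher, where 8.32% of all tested probe sets had one. Nr4a1, an orphan nuclear receptor gene, was at 443, 408, 560 and 472 on olanzapine arrays 9, 14, 18 and 19, against 261, 249, 97.5 and 228 on saline arrays 14, 15, 17 and 19. Its groups did not overlap, as in 4.47% of all tested probe sets. Nr4a1 is named here because it had the smallest p of the 38, so it is not a like comparison for the members. Its log2 difference was 1.02 (SE 0.21, limma adjusted p 0.317). Ier5, an immediate early response gene, differed by 0.63 (SE 0.16) and the synaptic scaffold gene Homer1 by 0.60 (SE 0.21), with 3 of its 4 tested probe sets higher. With 1 array left out the list's median ran from 0.018 without saline 19 and 0.039 without saline 17 to 0.15 without saline 15 and 0.20 without saline 14.

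Nab1 and Nab2 encode corepressors that bind Egr proteins and restrain them, and Nab2 is itself induced by Egr factors. Nab2 was at 522, 670, 828 and 568 on olanzapine arrays 9, 14, 18 and 19, against 362, 552, 382 and 416 on saline arrays 14, 15, 17 and 19. All olanzapine arrays but number 9 lay above every saline array. The log2 difference was 0.53 (SE 0.16, unadjusted p 0.00542, limma adjusted p 0.403). Nab1 differed by 0.30 (SE 0.16) and Sp1, a zinc finger factor of GC-rich sites, by 0.19 (SE 0.13). Of the 5 measured genes in this list of corepressors and GC-site factors 3 were higher, 2 lower and 0 called.

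Genes of the pathway that acts on Egr and Arc promoters were lower in 18 of 24 and higher in 6, with 0 called and a median of -0.082 against 0.015 over all genes, of which 53.4% were higher. That median was -0.044 without olanzapine 9. The counts and medians of this list, and of the Arc list below, are for the deposited scaling only. Under that scaling the median over the brightest 5% of tested probe sets was -0.15. Srf, the serum response factor gene, was at 549, 464, 386 and 499 in olanzapine and at 457, 265, 465 and 391 in saline, a log2 difference of 0.25 (SE 0.17, limma adjusted p 0.758). Mef2c, a neuronal transcription factor gene, differed by -0.40 (SE 0.09, limma adjusted p 0.317), and Prkacb and Prkaca, which encode catalytic subunits of protein kinase A, by -0.28 (SE 0.10) and 0.20 (SE 0.11). Mef2c and Prkacb are among the brightest 5%, like Egr1, and their quantile-normalized differences were -0.067 and -0.13. Among genes whose products work with Arc at the synapse 9 of 16 were higher, 7 lower and 0 called, with a median of 0.027. With 1 array left out that median turned to -0.021 without saline 17, -0.014 without olanzapine 18 and -0.0082 without saline 19, and it was 0.078 without saline 15. Wasf1, an actin regulator that binds Arc, differed by -0.25 (SE 0.08), the AMPA receptor gene Gria2 by -0.23 (SE 0.08) and the receptor gene Notch1 by -0.46 (SE 0.24). Wasf1 and Gria2 are also among the brightest 5%, and their quantile-normalized differences were 0.011 and -0.018.

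Among markers of cell types, 10 of 10 measured genes of the meninges were higher in olanzapine, with 0 called, where 53.4% of all genes were higher. Of the 10, 7 had an unadjusted limma p under 0.05, where 8.32% of all tested probe sets had one. The median difference of the 10 genes was 0.55, against 0.015 over all genes. Their summed intensities were 4120 to 10930 in olanzapine and 3322 to 4017 in saline. Olanzapine 9 stood out, with a mean log2 level of 9.62 for this list. The other olanzapine arrays were at 8.65 to 9.01 and the saline arrays at 8.35 to 8.52. Of the 11 measured markers of excitatory neurons, the main source of Arc, 7 were higher and 4 lower, and their summed intensities were 15310 to 17290 in olanzapine and 15780 to 17320 in saline. The part of either marker list in the values above was not tested.

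The genes most like each tested member were ranked by Pearson r over the 8 arrays with group means removed, among 10123 genes, as a description. For Egr2 they were Sars2 (0.978), Fos (0.966) and Lhx5 (0.964). Fos was at 1571, 1478, 1379 and 1588 on olanzapine arrays 9, 14, 18 and 19, against 2444, 1723, 439.5 and 1357 on saline arrays 14, 15, 17 and 19. Fos, Sars2 and Lhx5 all had the order of the saline arrays in Egr2, a likeness that the ranking itself selects for. For Egr1 they were Dnm1 (0.987), the dynamin gene of synaptic vesicle retrieval, Sync (0.982) and Epn2 (0.98). For Arc they were Nomo1 (0.983), Celf5 (0.975) and Emc9 (0.963), and for the first Egr4 probe set Ihh (0.967), Cstf2 (0.954) and Elavl2 (0.95). Each of these is the highest of that many values, and none was tested.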

How the data were processed

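RNA from rat frontal cortex was hybridised to 8 Affymetrix rat arrays, taken as 1 animal an array. The authors deposited linear intensity values for 31099 probe sets, scaled to a common trimmed mean of 500 per array. How probes were summarised and corrected for background is not stated in the labels. Of the probe sets, 57 are controls, and of the rest 20826 had 1 gene symbol, 436 several and 9780 none. Names come from the 2016 platform annotation, updated by gene identifier from a RefSeq table. Members kept the platform's own symbol.

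Values were taken as log2(intensity + 63.4), the 25th percentile of all values. Probe sets at or below the 40th percentile of mean log2 value were removed. Olanzapine was compared with saline on all 8 arrays in limma 3.58.1 under R 4.3.3 (lmFit, eBayes with trend, two-sided, Benjamini-Hochberg at 0.05 over 18625 probe sets). The model was tested on simulated data. The p-values, SEs and intervals rest on the spread between 4 animals a group, which limma draws towards that of probe sets of like intensity. For the bright Egr2 probe set the SE was 0.23 in this fit and 0.34 in the plain two-sample test. The number of arrays limits the precision. Each gene was stood for by its probe set of highest mean.

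Named genes were the members, the 3 genes of each list with the smallest p, Nab1, Nab2 and Srf, and the 3 genes most like each tested member; others are said to be chosen after their values were seen, except the marker lists, given as sums. Members and lists were chosen with earlier results of these data known. Alternatives were quantile normalization, cyclic loess, median centring, other pseudocounts and filters, array weights, a plain test, a replicate block and leaving out each array.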

Additional observations from a re-analysis of the deposited data

Results flagged for a closer look

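Among 14 groups of 4 values (7 probe sets in 2 treatments), 1 array lay far from its group, and such a flag arises by chance in about 1 group in 20. In the dim Egr2 probe set 1398266_a_at, olanzapine 9 was at 7.04 on the log2(intensity + 63.4) scale, against 6.17 to 6.20 on the other olanzapine arrays. This probe set was below the filter on dim values and carries no call.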

How the results depend on the processing

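For all 5 genes no setting gave an adjusted p under 0.05, and the smallest was 0.421, for Egr4. Egr3, below the filter, was called in none and had an adjusted p of 0.924 where no filter was used. Egr1, at -0.09, was 0.18 after quantile normalization and 0.10 after cyclic loess. Egr2, Egr4 and Arc kept their direction in all settings that kept all 8 arrays, with ranges of 0.041 to 0.47, -0.41 to -0.21 and 0.15 to 0.32, and Egr3 likewise, at -0.50 to -0.054. With 1 array left out, Egr1 ran from -0.17 to -0.016, Egr2 from 0.097 to 0.63, Egr3 from -0.27 to 0.033, Egr4 from -0.46 to -0.23 and Arc from 0.00049 to 0.43. The Egr4 probe set 1375784_at ran from -0.22 to 0.043. The dim Egr2 probe set, at 0.031, was -0.021 after median centring, -0.016 with a pseudocount of 16 and -0.18 to 0.11 with 1 array left out.

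Over all probe sets 0 were called in every setting that left out no array, except the replicate block, where 6 were. With 1 array left out 0 to 106 were called, the 106 without saline 19. Animal numbers 14 and 19 occur in both groups but name different animals, and deviations of same-numbered arrays had correlations of 0.075 and 0.109. With the number as a replicate block, the difference rests on the arrays numbered 14 and 19 alone. Every other number occurs in 1 group only and adds nothing to it. On those arrays Egr1 differed by -0.072, Egr2 by 0.041, Egr3 by -0.50, Egr4 by -0.38, Arc by 0.16 and the dim Egr2 probe set by -0.23. No cause of these shifts was tested.

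Correlations turned sign for Egr1 with Egr3 after quantile normalization (-0.083), and for Egr1 with Egr4 with group means removed (-0.044), after quantile normalization (-0.414) and without saline 14 and 15 (-0.396). Without saline 17 and 19, Egr2 with Egr4 was at 0.65 and Egr2 with Arc at -0.316, without olanzapine 14 and saline 14 Egr3 with Egr4 was at -0.792, and with group means removed Egr2 with Egr4 was at 0.002 and Egr3 with Egr4 at -0.191. Probe sets near an intensity of 63.4, such as Egr3, give the least reliable differences.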
